A study of Rattus norvegicus with 6 samples.

Results

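The genes described here encode the subunits of oxidative phosphorylation, taken as every row of the count table whose symbol begins with Nduf, Uqcr, Cox4 to Cox8 or Atp5, or is Sdha, Sdhb, Sdhc or Sdhd, together with the mitochondrially encoded rows named Mt-nd, Mt-co, Mt-atp and Mt-cyb. The rule took 102 of the 18930 rows in the table, 89 of them nuclear and 13 mitochondrially encoded. It also takes the complex I assembly factors named Ndufaf and some paralogues outside the complexes. These rows are counted in the nuclear and complex totals and are also given apart from the structural subunits. A single comparison was possible, which asks how the RNA of rat kidney epithelial cells differs after streptozotocin. NRK-52E is an established epithelial line derived from normal rat kidney, here of wild-type genotype in every sample. The STZ group (n = 3) received 10 mM streptozotocin for 24 h, and the Control group (n = 3) received vehicle. The methods name dimethyl sulfoxide as the solvent for cell counts in this line and do not name it again for the sequenced cells. Poly(A)-selected RNA was sequenced, and the total counts per sample were 10430924, 10902792 and 12737131 in Control and 13921413, 11658253 and 15191349 in STZ. The labels do not say whether the samples of a group came from separate cultures, so the p-values measure only the spread between these samples, which may be technical.

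Oxidative phosphorylation takes place in the inner mitochondrial membrane. Complexes I and II pass electrons from NADH and succinate to ubiquinone, complex III passes them on to cytochrome c, and complex IV gives them to oxygen, while complexes I, III and IV move protons out of the matrix and complex V, the ATP synthase, makes ATP as protons return. Complex II is built from nuclear genes alone, and the other complexes combine nuclear subunits with subunits that the mitochondrial genome encodes. The proximal tubule of the kidney relies on this pathway to power salt and solute reabsorption. Streptozotocin is a nitrosourea joined to glucosamine that alkylates DNA and is used to make rodents diabetic, because pancreatic beta cells take it up.

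Reads were scaled to the mean library with TMM factors, and these values are called normalized counts. A row counted as higher or lower in STZ when edgeR's quasi-likelihood test gave it a p under 0.05 after adjustment by the Benjamini-Hochberg method across the 11870 rows tested. Of the 102 rows, 91 passed the filter on low counts, which were all 13 mitochondrially encoded rows and 78 of the 89 nuclear rows. Among the 78 nuclear rows, 30 were higher in STZ, 10 were lower and 38 did not pass, where 25.9% of all rows tested were higher, 25.1% were lower and 50.9% were called in either direction. The nuclear share was thus 38.5% higher and 12.8% lower. Among the 68 nuclear structural subunits tested, 27 were higher and 8 lower. With library size as the only scaling, the split was 21 higher and 16 lower, although a change of scaling moves all rows of a sample alike. The median log2 fold change of the nuclear rows was 0.07, beside -0.01 for all rows tested, and it was 0.05 without Control replicate 3 and 0.04 with library size only. Over the 4 other scalings, the median of all rows tested ran from -0.039 to -0.004 and that of the nuclear rows from 0.040 to 0.075. Among the 13 mitochondrially encoded rows, 2 were higher and 8 were lower, a share of 61.5% lower (5 of 13 lower with the DESeq2 Wald test), with a median log2 fold change of -0.16. That median was -0.10 without Control replicate 2.

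The changes were small. The study's thresholds add an absolute log2 fold change over 1 to the adjusted p, and 3.37% of all rows tested passed both. No member passed both in edgeR's quasi-likelihood test, since the log2 fold changes of the 91 rows ran from -0.41 to 0.46, and the count was also 0 without adjustment, with DESeq2 and with limma-voom. The normalized counts of the Control and STZ groups did not overlap for 48 of the 91 rows (52.7%), where 56.3% of all rows tested did not overlap. That share was close to the share over the whole table. In RNA from whole cultures, fewer cells of a type and less RNA per cell cannot be told apart.

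**Figure D1:**
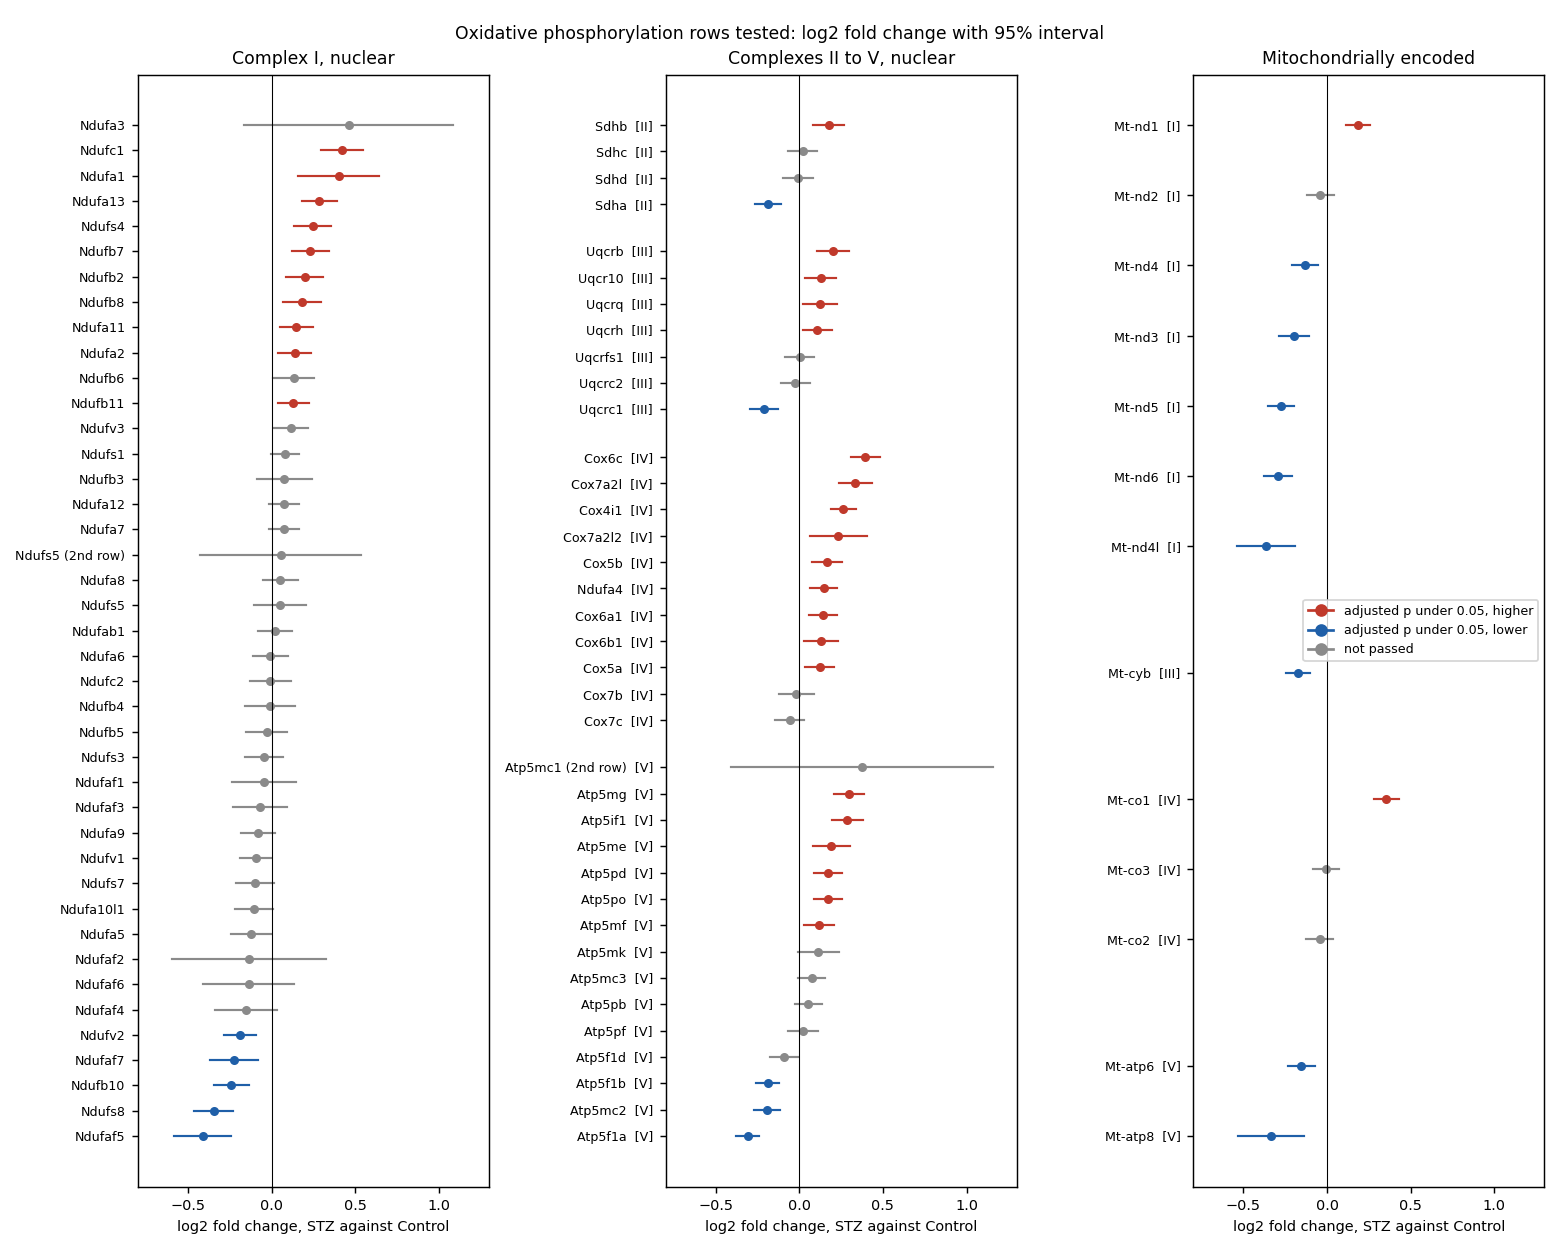
Log2 fold change (STZ against Control, horizontal axis) of the 91 members tested, with 95% intervals; red and blue mark rows higher and lower at an adjusted p under 0.05, and Roman numerals in brackets name the complex. Complex IV has red points and no blue ones among its nuclear rows, whereas 8 of the 13 mitochondrially encoded rows are blue.

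The mitochondrial genome encodes the membrane core of the respiratory chain. Mt-co1 is the subunit of complex IV that holds the site where oxygen is reduced. Its normalized counts were 175073, 185250 and 171706 in Control and 219672, 224697 and 235483 in STZ. All 3 STZ samples lay above all 3 Control samples. The log2 fold change was 0.35 (SE 0.04, 95% interval 0.28 to 0.43; edgeR's quasi-likelihood test, Benjamini-Hochberg adjusted p = 6.8e-11). Mt-nd1, part of the ubiquinone-binding end of complex I, was the other mitochondrially encoded row that rose, with 23182, 23760 and 22116 in Control and 24690, 26641 and 27175 in STZ. These groups did not overlap either, with a log2 fold change of 0.19 (95% interval 0.11 to 0.26).

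The other mitochondrially encoded subunits of complex IV were not called. Mt-co2, which takes electrons from cytochrome c, had 33323, 37308 and 33144 in Control and 31879, 33591 and 35148 in STZ. Mt-co3, a subunit that carries no redox centre, had 54035, 60207 and 53491 in Control and 53440, 55859 and 57702 in STZ. The groups overlapped for both genes, whose log2 fold changes were -0.04 (95% interval -0.12 to 0.04) and -0.01 (95% interval -0.08 to 0.07). The reads of Mt-co1 divided by those of Mt-co3 in the same sample came to 3.24, 3.08 and 3.21 in Control and 4.11, 4.02 and 4.08 in STZ. This ratio was higher in every STZ sample than in every Control sample, and it does not depend on how libraries were scaled.

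Among the complex I genes of the mitochondrial genome, Mt-nd5, a proton-pumping subunit at the far end of the membrane arm, fell. Its normalized counts were 18237, 18874 and 20434 in Control and 15121, 16041 and 16481 in STZ, with no overlap between the groups. The log2 fold change was -0.27 (SE 0.04, 95% interval -0.35 to -0.20; edgeR's quasi-likelihood test, Benjamini-Hochberg adjusted p = 1.01e-07). Mt-nd6 is encoded on the opposite DNA strand from the other members, and its counts could hold antisense reads because the sources used here do not state how the counting treated strand. Its values were 3856, 4297 and 4296 in Control and 3217, 3458 and 3484 in STZ. Every STZ sample was below every Control sample, at a log2 fold change of -0.29 (95% interval -0.38 to -0.21). Mt-nd4 also fell without overlap, with 36130, 40059 and 36605 in Control and 32714, 34988 and 35176 in STZ and a log2 fold change of -0.13 (95% interval -0.21 to -0.06). Its call was lost without Control replicate 2 (log2 fold change -0.09) and without STZ replicate 1 (-0.10). For Mt-nd3, which had 4176, 5007 and 4707 in Control and 3919, 3969 and 4214 in STZ, Control replicate 1 lay within the STZ range, and the log2 fold change was -0.20 (95% interval -0.29 to -0.11). Mt-nd2 did not pass, at -0.04 (95% interval -0.12 to 0.04).

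Mt-nd4l and Mt-atp8 are short genes that overlap Mt-nd4 and Mt-atp6 in the mitochondrial genome, so reads in the overlap cannot be assigned to a single gene. Mt-nd4l had 2476, 3458 and 4212 in Control and 2284, 2560 and 3050 in STZ. Control replicate 1 lay among the STZ samples and Control replicate 3 far above them. Its log2 fold change of -0.37 passed in edgeR's quasi-likelihood test (Benjamini-Hochberg adjusted p = 0.000492) but not with the DESeq2 Wald test or with robust dispersion estimates, and it was -0.17 without Control replicate 3 and -0.54 without Control replicate 1. Mt-atp8, a stalk subunit of complex V, had 946, 1372 and 1438 in Control and 838, 853 and 1281 in STZ. The groups again overlapped, since STZ replicate 3 was above Control replicate 1. Its log2 fold change of -0.33 lost its call with the DESeq2 Wald test, with robust dispersion estimates, and without Control replicate 2, Control replicate 3, STZ replicate 1 or STZ replicate 2, and was -0.57 without STZ replicate 3.

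Mt-atp6, the complex V subunit that forms the proton path beside the c-ring, had 28114, 31824 and 28396 in Control and 24857, 27083 and 27383 in STZ. The groups did not overlap, and the log2 fold change was -0.16 (95% interval -0.24 to -0.07), a call that the DESeq2 Wald test did not make. Without Control replicate 2 the value was -0.10. Mt-cyb, the haem-bearing subunit of complex III, had 53563, 56705 and 53269 in Control and 46151, 49407 and 49186 in STZ. All STZ samples were below all Control samples for Mt-cyb, at a log2 fold change of -0.18 (SE 0.04; edgeR's quasi-likelihood test, Benjamini-Hochberg adjusted p = 6.55e-05).

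**Figure D2:**
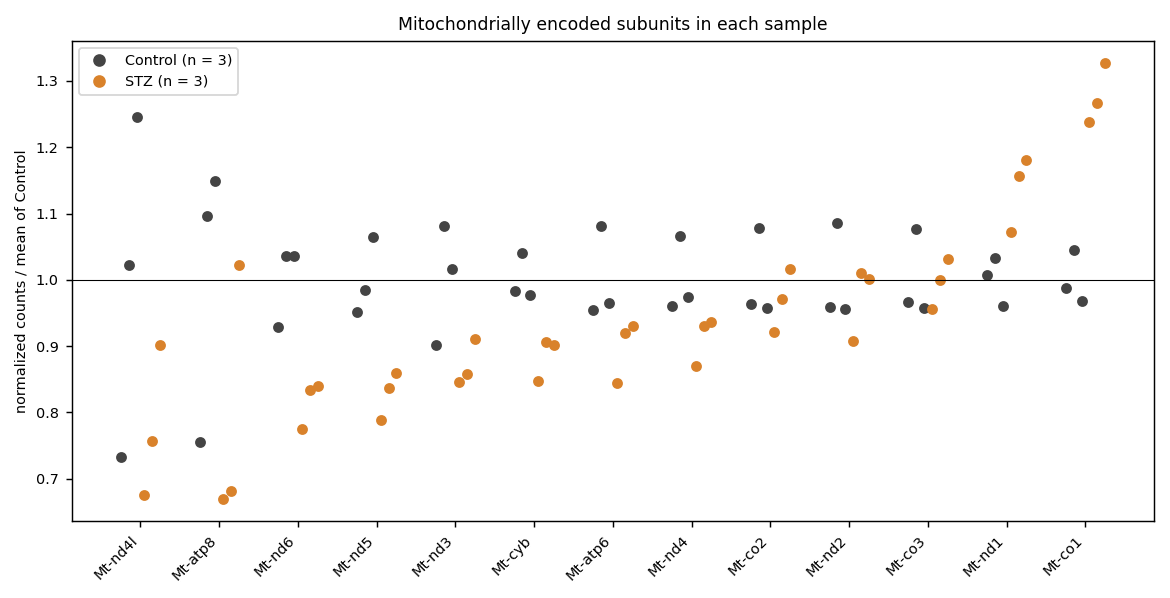
Normalized counts of the 13 mitochondrially encoded members in each sample, divided by the gene's mean in Control (vertical axis); each point is a sample, with 3 Control and 3 STZ samples per gene. Mt-co1 and Mt-nd1 have all STZ points above the Control points, Mt-nd5 and Mt-nd6 have all of them below, and Mt-nd4l and Mt-atp8 spread widely in both groups.

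Taken as a sum, the 13 mitochondrially encoded rows held 3.84, 4.13 and 3.80 in Control and 3.92, 4.11 and 4.23 in STZ percent of each library. The groups overlapped, so the total did not separate them. Mt-co1 alone made up 37.3, 36.4 and 36.5 in Control and 44.5, 43.4 and 44.1 in STZ percent of those reads, higher in every STZ sample. The other 12 rows together held 2.41, 2.63 and 2.42 in Control and 2.17, 2.32 and 2.37 in STZ percent of the library, lower in every STZ sample. That separation depends on the scaling, since their summed normalized counts were 294606, 324285 and 298570 in Control and 273744, 293000 and 298462 in STZ, where STZ replicate 3 lay above Control replicate 1. The ratio of all mitochondrially encoded reads to all nuclear member reads was 3.80, 3.96 and 3.87 in Control and 3.93, 4.17 and 4.25 in STZ, also with overlap. With 3 samples against 3, an exact two-sided permutation test of such a value cannot give a p below 0.1, and these shares carry no test.

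Summed over the nuclear rows of a complex, the share of the library moved in both directions. Complex IV rows held 0.167, 0.174 and 0.158 in Control and 0.184, 0.184 and 0.183 in STZ percent of the library, higher in every STZ sample. Complex V rows held 0.428, 0.441 and 0.423 in Control and 0.402, 0.395 and 0.398 in STZ percent, lower in every STZ sample. Complex II rows held 0.0656, 0.0674 and 0.0648 in Control and 0.0625, 0.063 and 0.0626 in STZ percent, again lower in every STZ sample, although by less. The sums for complexes I and III overlapped between the groups. Summed normalized counts separated the groups in the same complexes and directions. A sum follows the rows with the most reads, which for complex V were Atp5f1b and Atp5f1a, and so it can fall while most rows of the complex do not.

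**Figure D3:**
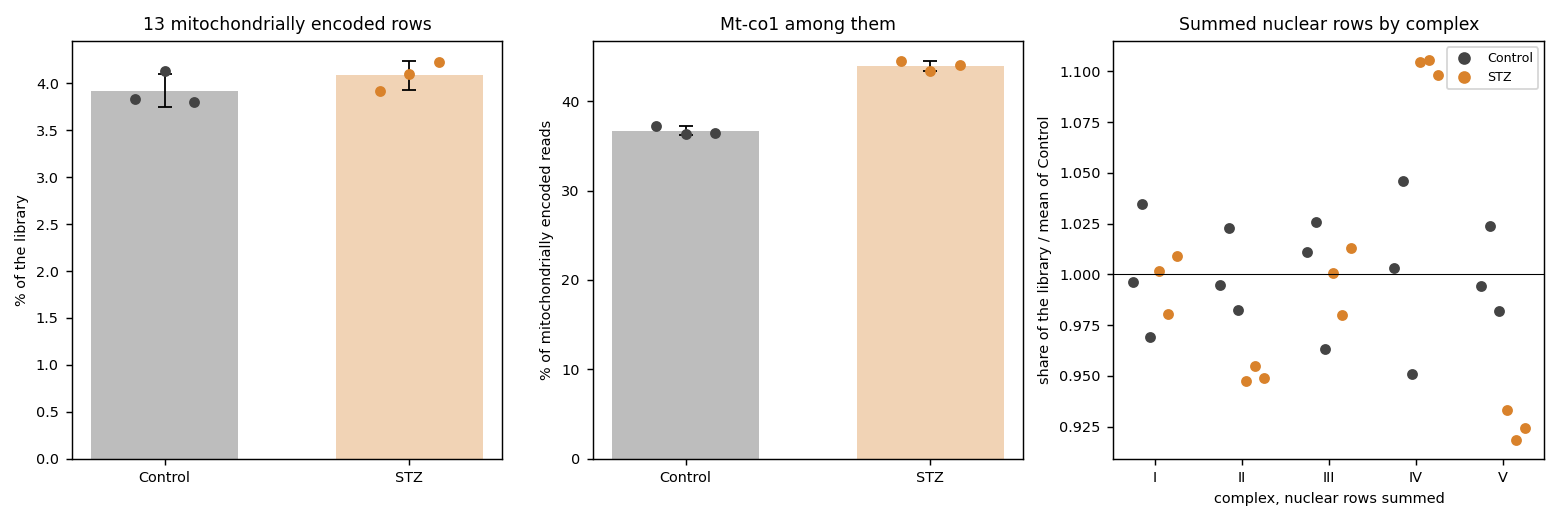
Left and middle, percent of each library in the 13 mitochondrially encoded rows and percent of those reads that were Mt-co1 (bars, mean of 3 samples; error bars, SD; points, samples); right, the summed nuclear rows of each complex as a share of the library, divided by the Control mean. The total overlaps between groups, the Mt-co1 share does not (36.4 to 37.3% against 43.4 to 44.5%), and the STZ points of complexes IV and V lie on opposite sides of the Control points.

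The sequences upstream of nuclear members that moved in opposite directions are shown for a rise and a fall in complex I, a rise in complex IV and a fall in complex V. RefSeq promoter windows of the GRCr8 assembly, each of 300 bases around a gene's start, matched 75 of the 85 nuclear symbols. The symbols without a match included Cox6c, Uqcrb, Cox6a1 and Atp5pd, which rose. Capitals mark the letters CGCATGCG (the core of the site that nuclear respiratory factor Nrf1 binds), CCGGAAG (the core bound by ETS factors such as Gabpa) and AAGATGGC (the Yy1 core), searched on both strands. The windows lie at chr2:137601686-137601985 on the minus strand, chr3:147961362-147961661 on the plus strand, chr19:65630133-65630432 on the plus strand and chr7:135678169-135678468 on the minus strand, and are written 5′ to 3′ along the gene.
Ndufc1: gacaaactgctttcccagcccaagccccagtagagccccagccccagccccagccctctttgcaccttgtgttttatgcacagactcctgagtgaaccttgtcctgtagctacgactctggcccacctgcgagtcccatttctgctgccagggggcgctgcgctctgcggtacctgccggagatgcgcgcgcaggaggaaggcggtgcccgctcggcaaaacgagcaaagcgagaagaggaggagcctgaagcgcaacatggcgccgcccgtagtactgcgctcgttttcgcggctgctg
Ndufaf5: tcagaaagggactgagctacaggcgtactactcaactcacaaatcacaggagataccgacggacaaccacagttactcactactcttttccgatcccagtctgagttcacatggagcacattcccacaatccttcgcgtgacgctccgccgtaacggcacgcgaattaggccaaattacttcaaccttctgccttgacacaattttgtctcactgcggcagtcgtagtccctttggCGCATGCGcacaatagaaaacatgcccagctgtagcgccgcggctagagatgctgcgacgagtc
Cox4i1: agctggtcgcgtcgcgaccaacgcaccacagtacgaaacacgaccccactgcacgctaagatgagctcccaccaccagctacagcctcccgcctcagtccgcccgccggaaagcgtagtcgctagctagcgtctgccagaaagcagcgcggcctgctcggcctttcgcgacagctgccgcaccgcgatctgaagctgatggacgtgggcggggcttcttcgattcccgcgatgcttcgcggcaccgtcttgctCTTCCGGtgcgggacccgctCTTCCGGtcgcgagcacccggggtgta
Atp5mc2: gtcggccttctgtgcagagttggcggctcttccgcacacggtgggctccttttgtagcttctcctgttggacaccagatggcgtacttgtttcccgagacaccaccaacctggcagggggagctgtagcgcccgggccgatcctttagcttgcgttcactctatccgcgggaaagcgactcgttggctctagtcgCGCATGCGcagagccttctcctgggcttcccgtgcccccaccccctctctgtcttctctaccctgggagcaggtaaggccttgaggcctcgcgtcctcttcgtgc
The Ndufaf5 and Atp5mc2 windows each hold the Nrf1 core, the Cox4i1 window holds the ETS core at 2 places, and the Ndufc1 window holds none of the 3 motifs.

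Across the 75 matched members, 9 windows (12%) held CGCATGCG, beside 1.66% of all 33469 windows. CCGGAAG was in 20 windows (26.7%), beside 8.75%, and AAGATGGC was in 15 (20%), beside 3.17%. By contrast, the GC box GGGCGG was in 42.7% of member windows and 33.1% of all windows, and CCAAT was in 32% and 37.5%. At least 1 of the first 3 motifs was in 35 member windows (46.7%), against 12.6% of all windows. Split by the change in STZ, it was in 16 of 26 windows of members that rose, 5 of 10 of those that fell and 12 of 34 of those that did not pass. By motif and in the same order, CGCATGCG was in 4, 3 and 2 of these windows, CCGGAAG in 11, 2 and 7 and AAGATGGC in 6, 1 and 6. CCGGAAG and AAGATGGC can share letters, and in no member window were they joined through a shared AAG. Other overlaps were not searched. A match describes the letters of a window, and no binding was measured.

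Complex I had 41 nuclear rows tested, of which 10 were higher and 5 lower (10 lower with library size only). The share higher, 24.4%, was close to the 25.9% of all rows tested, and 12.2% were lower beside 25.1%. The complex I median log2 fold change was near 0, at 0.02, and its sign depended on the setting (-0.01 with library size only and with no filter, 0.04 without STZ replicate 2). A change of scaling moves all rows of a sample alike, and the median of all rows tested went as low as -0.039 over the 4 other scalings. Its accessory subunits, which surround the core and are needed for assembly or stability, made up the rises, with 10 of 28 higher (35.7%) and 1 lower (3.57%). Among them, Ndufc1, a small subunit of the membrane arm whose promoter window is printed above, had 474, 508 and 482 in Control and 666, 621 and 669 in STZ. All 3 STZ samples lay above the Control samples. Its log2 fold change was 0.42 (SE 0.06, 95% interval 0.30 to 0.54; edgeR's quasi-likelihood test, Benjamini-Hochberg adjusted p = 1.89e-07), from 652 ± 27.1 against 488 ± 17.8 (mean ± SD, n = 3 each). Ndufa13, also known as Grim19, a subunit near the junction of the arms, had 922, 1039 and 885 in Control and 1186, 1139 and 1136 in STZ. The groups did not overlap, and the log2 fold change was 0.28 (95% interval 0.18 to 0.39). Ndufa1 had fewer reads, 112, 131 and 122 in Control and 221, 169 and 173 in STZ before scaling. After scaling, STZ replicate 3 was below Control replicate 2, and its log2 fold change of 0.40 had an interval of 0.16 to 0.64. Ndufs4, Ndufb7, Ndufb2, Ndufb8, Ndufa11, Ndufa2 and Ndufb11 also rose, by 0.13 to 0.24, each without overlap. With library size only, without Control replicate 1 and without STZ replicate 1, 7 accessory subunits were higher instead of 10. Ndufa11, Ndufa2 and Ndufb11 lost their calls with library size only, Ndufa2 also with the DESeq2 Wald test. Leaving out Control replicate 1 lost Ndufa2, Ndufb11 and Ndufb8, and leaving out STZ replicate 1 lost Ndufa1, Ndufa2 and Ndufb11. Ndufa11 was also lost without Control replicate 3 (0.09) and without STZ replicate 2, and Ndufa2 and Ndufb11 without STZ replicate 3.

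Ndufb10 was the accessory subunit that fell, with 1115, 1140 and 1064 in Control and 898, 894 and 1007 in STZ. The Control samples all lay above the STZ samples, at a log2 fold change of -0.24 (95% interval -0.35 to -0.14). The count of accessory subunits lower was 4 with library size only, 3 without Control replicate 3 and without STZ replicate 3, and 2 with upper-quartile scaling and with the replicate number as a block.

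The nuclear core subunits of complex I carry the flavin and the iron-sulfur clusters through which electrons reach ubiquinone. Of the 6 tested, 2 were lower and none was higher, a count of 0 that was the same without adjustment in edgeR's quasi-likelihood test, with DESeq2 and with limma-voom, and 1 without STZ replicate 2. The share lower was 33.3%, beside 25.1% of all rows tested, and the count lower was 4 with library size only. Ndufs8, an iron-sulfur subunit next to the ubiquinone site, had 961, 1036 and 871 in Control and 783, 761 and 708 in STZ. Every STZ sample was below every Control sample. The log2 fold change was -0.35 (SE 0.06, 95% interval -0.46 to -0.23; edgeR's quasi-likelihood test, Benjamini-Hochberg adjusted p = 2.48e-06). Ndufv2, an iron-sulfur subunit of the NADH-oxidizing tip, had 1182, 1198 and 1161 in Control and 1045, 1010 and 1043 in STZ. Its groups did not overlap, at -0.19 (95% interval -0.29 to -0.10). Its neighbour Ndufv1, which binds NADH and the flavin, had 1324, 1298 and 1296 in Control and 1214, 1190 and 1258 in STZ. Here too the groups did not overlap, but the log2 fold change of -0.10 did not pass (edgeR's quasi-likelihood test, Benjamini-Hochberg adjusted p = 0.0798). It did pass with library size only (-0.13) and with upper-quartile scaling (-0.11).

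The largest core subunit, Ndufs1, had 2046, 2031 and 2101 in Control and 2195, 2074 and 2256 in STZ. These values overlapped, and its log2 fold change of 0.08 (95% interval -0.01 to 0.17) passed only without STZ replicate 2 (0.11). Ndufs3 and Ndufs7 did not pass either, at -0.05 (95% interval -0.16 to 0.07) and -0.10 (95% interval -0.22 to 0.01), although Ndufs7 passed with library size only (-0.14).

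The assembly factors of complex I act on the growing complex and are not part of the finished enzyme. All 7 tested had a negative log2 fold change, as did 6036 of all 11870 rows tested, and 2 of the 7 passed (1 without Control replicate 2). That share of 28.6% was close to the 25.1% of all rows tested that were lower. Ndufaf5, which modifies Ndufs7, had 297, 284 and 291 in Control and 214, 214 and 225 in STZ. The groups lay well apart. Its log2 fold change of -0.41 (SE 0.08, 95% interval -0.58 to -0.24; edgeR's quasi-likelihood test, Benjamini-Hochberg adjusted p = 6.43e-05) was the largest fall of any member. Ndufaf7, a methyltransferase, had 429, 492 and 439 in Control and 412, 368 and 381 in STZ. The Control samples were all higher, at -0.23 (95% interval -0.37 to -0.08). The other 5, which were Ndufaf1, Ndufaf2, Ndufaf3, Ndufaf4 and Ndufaf6, ran from -0.15 to -0.05, and their intervals spanned 0.

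Complex II, succinate dehydrogenase, also belongs to the citric acid cycle. Sdha, the flavoprotein that oxidizes succinate, had 3236, 3250 and 3173 in Control and 2728, 2890 and 2863 in STZ. Each STZ sample was below each Control sample, at a log2 fold change of -0.19 (SE 0.04, 95% interval -0.27 to -0.11; edgeR's quasi-likelihood test, Benjamini-Hochberg adjusted p = 8.63e-05). Sdhb, the iron-sulfur subunit that takes the electrons from Sdha, had 1212, 1265 and 1188 in Control and 1415, 1366 and 1358 in STZ. It moved the other way, with every STZ sample above the Control samples and a log2 fold change of 0.18 (95% interval 0.08 to 0.27; edgeR's quasi-likelihood test, Benjamini-Hochberg adjusted p = 0.00139). The membrane anchors Sdhc and Sdhd had 0.02 (95% interval -0.07 to 0.11) and -0.01 (95% interval -0.10 to 0.08). Their groups overlapped, and neither passed.

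Complex III had 7 nuclear rows tested, of which 4 were higher and 1 lower, with a median log2 fold change of 0.11 (0.06 without Control replicate 3). These shares were 57.1% and 14.3%, beside 25.9% and 25.1% of all rows tested. Uqcrc1, a large core protein on the matrix side, had 2413, 2449 and 2436 in Control and 2041, 2166 and 2102 in STZ. The Control samples lay within a narrow range above all STZ samples. Its log2 fold change was -0.21 (SE 0.04, 95% interval -0.29 to -0.13; edgeR's quasi-likelihood test, Benjamini-Hochberg adjusted p = 3.01e-05). The other core protein, Uqcrc2, and the Rieske iron-sulfur protein Uqcrfs1 did not pass, at -0.02 (95% interval -0.11 to 0.06) and 0.00 (95% interval -0.09 to 0.09).

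The small subunits of complex III rose together, 4 of 4, but narrowly, where 25.9% of all rows tested were higher. Uqcrb had 1637, 1613 and 1447 in Control and 1827, 1700 and 1860 in STZ, without overlap, and a log2 fold change of 0.20 (95% interval 0.11 to 0.30). Uqcr10 had 1325, 1327 and 1223 in Control and 1437, 1365 and 1421 in STZ, also without overlap, and 0.13 (95% interval 0.03 to 0.22). Uqcrh and Uqcrq had 0.11 and 0.12, and their groups overlapped. The count of 4 fell to 1 with the DESeq2 Wald test, with library size only, with upper-quartile scaling, without Control replicate 3 and without STZ replicate 3, and to 2 without STZ replicate 1.

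Of the 11 nuclear rows of complex IV tested, 9 were higher (81.8%) and none was lower. Of all rows tested, 25.9% were higher and 25.1% lower. The complex IV rows had a median log2 fold change of 0.14. These rows include Cox7a2l and its relative Cox7a2l2, which are not counted as structural subunits here, and without them 7 of 9 were higher (4 without Control replicate 3). The count of 0 lower was the same without adjustment in edgeR's quasi-likelihood test, with DESeq2 and with limma-voom, and under each scaling tried, while the count higher was 7 to 9 under the scalings and 5 without Control replicate 3. The 9 that rose were also the 9 whose groups did not overlap (81.8%). Of all 11870 rows tested, 56.3% did not overlap in either direction, and 3397 did not overlap and were higher in STZ. Cox6c, a small subunit of the membrane part, had 2168, 2308 and 2120 in Control and 2817, 2827 and 3020 in STZ. All STZ samples were far above the Control samples. The log2 fold change was 0.39 (SE 0.04, 95% interval 0.31 to 0.48; edgeR's quasi-likelihood test, Benjamini-Hochberg adjusted p = 1.51e-10), from 2888 ± 114 against 2199 ± 97.6 (mean ± SD, n = 3 each). Cox4i1, the largest nuclear subunit, through which ATP regulates the enzyme, had 3114, 3175 and 3049 in Control and 3747, 3747 and 3715 in STZ. The samples within each group lay close together, and the groups did not overlap, at 0.26 (95% interval 0.19 to 0.34; edgeR's quasi-likelihood test, Benjamini-Hochberg adjusted p = 1.39e-07).

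Cox7a2l, also known as Scaf1, joins complex IV to complex III in supercomplexes. It had 1325, 1298 and 1165 in Control and 1630, 1583 and 1556 in STZ. The groups did not overlap, and the log2 fold change was 0.34 (95% interval 0.24 to 0.43). A related row, Cox7a2l2, rose as well (0.23, 95% interval 0.07 to 0.40; not called with the DESeq2 Wald test, without Control replicate 3 or without STZ replicate 2), and reads that fit both genes could have been lost or split in the counting. The remaining rises were Cox5b (0.17), Ndufa4 (0.14), Cox6a1 (0.14), Cox6b1 (0.13) and Cox5a (0.12, a call lost with library size only, without Control replicate 1 and without Control replicate 3). Ndufa4 is named for complex I but is a subunit of complex IV, with 2468, 2521 and 2301 in Control and 2726, 2680 and 2647 in STZ. Cox6a1 had 3807, 4163 and 3560 in Control and 4173, 4321 and 4210 in STZ. Its STZ samples were all above its Control samples, by little for Control replicate 2, and the call was lost without Control replicate 3 (log2 fold change 0.09). Cox6b1 lost its call with library size only (0.09), with upper-quartile scaling (0.11), with no filter (0.13), with the DESeq2 Wald test (0.13), without Control replicate 1 (0.12), without Control replicate 3 (0.10), without STZ replicate 2 (0.11) and without STZ replicate 3 (0.13). Cox7b and Cox7c did not pass, at -0.02 (95% interval -0.12 to 0.09) and -0.06 (95% interval -0.15 to 0.03).

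Complex IV has tissue-specific paralogues, and those of muscle and lung were nearly absent. Cox4i2, the paralogue of Cox4i1 found in lung, had raw reads of 1, 2 and 2 in Control and 0, 5 and 2 in STZ. Cox6a2 and Cox7a1, the forms of heart and skeletal muscle, had 0, 2 and 0 in Control and 1, 0 and 0 in STZ and 8, 5 and 3 in Control and 9, 10 and 13 in STZ. Ndufa4l2, the hypoxia-induced relative of Ndufa4, had 3, 2 and 1 in Control and 0, 3 and 1 in STZ. None of these rows passed the filter, and no change in them could be detected at this depth.

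Complex V had 15 nuclear rows tested, of which 6 were higher and 3 lower, with a median log2 fold change of 0.11 (0.05 without Control replicate 3). These shares were 40% and 20%, beside 25.9% and 25.1% of all rows tested. The falls were in the catalytic head and the c-ring. Atp5f1a, the alpha subunit of the head, had 10725, 11243 and 10965 in Control and 8993, 8670 and 8915 in STZ. All STZ samples lay well below the Control samples. The log2 fold change was -0.31 (SE 0.03, 95% interval -0.38 to -0.24; edgeR's quasi-likelihood test, Benjamini-Hochberg adjusted p = 6.54e-10), from 8859 ± 169 against 10978 ± 259 (mean ± SD, n = 3 each). Atp5f1b, the beta subunit, where ATP is formed, had 16181, 16752 and 16740 in Control and 14655, 14558 and 14374 in STZ. It too fell without overlap, at -0.19 (95% interval -0.26 to -0.12; edgeR's quasi-likelihood test, Benjamini-Hochberg adjusted p = 1.03e-05). Atp5f1d, the delta subunit of the central stalk below the head, had 2384, 2453 and 2348 in Control and 2207, 2261 and 2269 in STZ. The groups did not overlap, yet the log2 fold change of -0.09 (95% interval -0.17 to -0.01) did not pass; of the 3 head rows, 2 were lower here and 3 with limma-voom, with library size only, with upper-quartile scaling, with the replicate number as a block, with robust dispersion estimates and without Control replicate 3.

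The c-ring, the rotor that protons turn, is made from identical mature proteins that several genes encode. Atp5mc2 had 4074, 4061 and 3861 in Control and 3458, 3578 and 3440 in STZ. The STZ samples were all below the Control samples, at -0.20 (SE 0.04, 95% interval -0.27 to -0.12; edgeR's quasi-likelihood test, Benjamini-Hochberg adjusted p = 3.47e-05). Atp5mc3 had 2335, 2491 and 2324 in Control and 2532, 2470 and 2516 in STZ. Its groups overlapped, and its log2 fold change of 0.07 (95% interval -0.01 to 0.16) did not pass. The symbol Atp5mc1 had a pair of rows, of which the tested row had raw reads of 8, 5 and 14 in Control and 10, 11 and 20 in STZ and the other had 2, 1 and 1 in Control and 2, 5 and 3 in STZ, so these counts limit what can be read of it.

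The rises in complex V were in the peripheral stalk, the small membrane subunits and the inhibitor. Atp5mg, subunit g, which helps to join the enzyme into dimers, had 2401, 2580 and 2267 in Control and 3105, 2885 and 2900 in STZ. All STZ samples were above the Control samples. The log2 fold change was 0.30 (SE 0.04, 95% interval 0.21 to 0.38; edgeR's quasi-likelihood test, Benjamini-Hochberg adjusted p = 2.39e-07). Atp5me and Atp5mf, subunits e and f, rose by 0.19 (95% interval 0.08 to 0.30) and 0.12 (95% interval 0.03 to 0.21), and Atp5mf overlapped between the groups and lost its call with library size only, with upper-quartile scaling, with the DESeq2 Wald test and without Control replicate 3 (0.06), STZ replicate 1 or STZ replicate 3. In the peripheral stalk, which holds the head still, Atp5po and Atp5pd each rose by 0.17 without overlap, while Atp5pb (0.05) and Atp5pf (0.02) did not pass. Atp5if1 encodes the protein that blocks ATP hydrolysis by the enzyme. It had 1236, 1264 and 1158 in Control and 1443, 1527 and 1492 in STZ. The groups did not overlap, and the log2 fold change was 0.29 (95% interval 0.19 to 0.38; edgeR's quasi-likelihood test, Benjamini-Hochberg adjusted p = 1.64e-06).

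**Figure D4:**
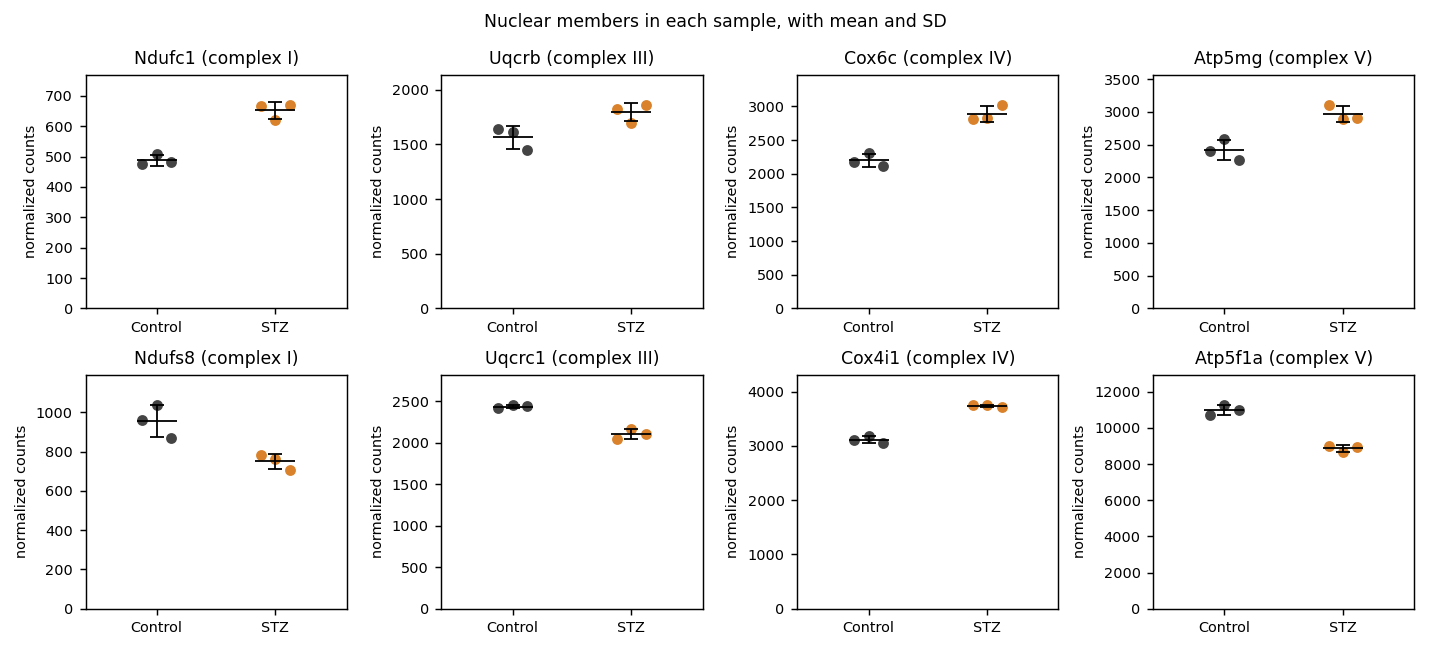
Normalized counts (vertical axes, from 0) of 8 nuclear members of complexes I, III, IV and V in each sample, with the mean and SD of the 3 samples of a group. The groups do not overlap in any panel; Ndufs8, Uqcrc1 and Atp5f1a are lower in STZ and the other members are higher.

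A grouping of the nuclear core of complexes I and III, Sdha and the head of complex V was chosen after the values were seen and carries no test. Of the 13 rows tested in it, 6 were lower, 7 did not pass and none was higher, with a median log2 fold change of -0.10, and the count higher was also 0 without adjustment in edgeR's quasi-likelihood test and 1 without STZ replicate 2. The share lower was 46.2%, beside 25.1% of all rows tested, and the count lower ran from 6 to 9 over the 4 other scalings. The groups did not overlap for 8 of these 13 rows (61.5%), all of them lower in STZ. Of all 11870 rows tested, 56.3% did not overlap in either direction, and 3283 did not overlap and were lower in STZ. The grouping leaves out Sdhb, a redox subunit that rose, so it does not hold every catalytic subunit.

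**Figure D5:**
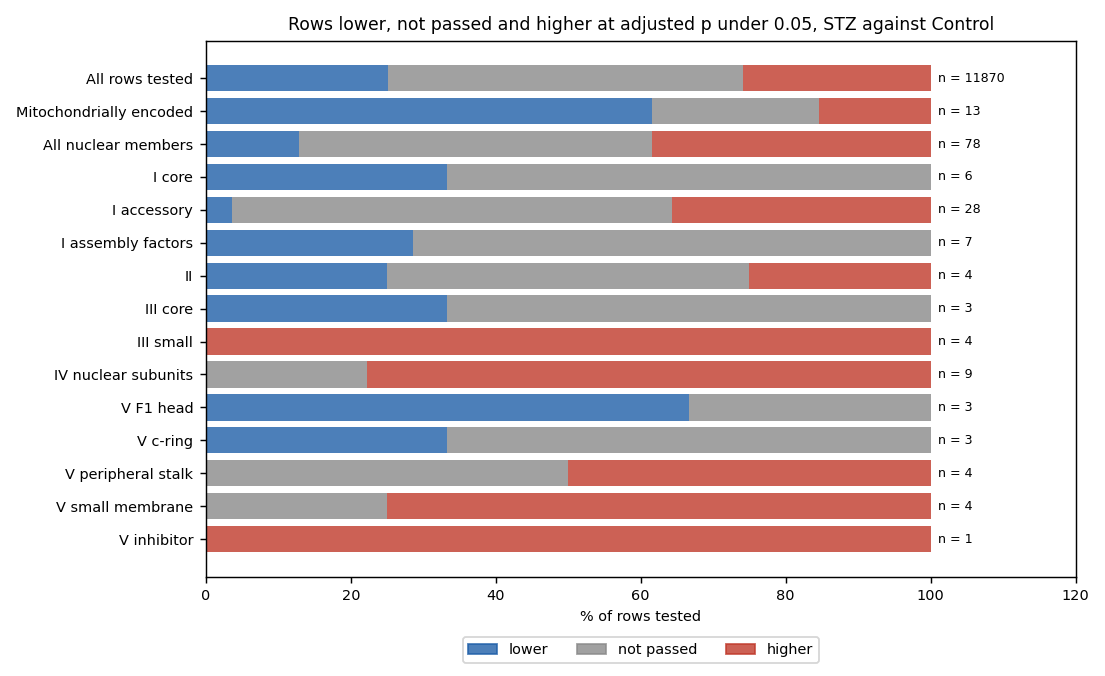
Percent of rows tested (horizontal axis) that were lower, not passed or higher in STZ at an adjusted p under 0.05, for all rows, for the members by genome and for the parts of each complex; n is the number of rows tested. The core of complexes I and III and the head of complex V have no rows higher, whereas the nuclear subunits of complex IV have none lower.

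Genes that work beside the subunits were followed as lists. Of 30 assembly factors outside the name rule that were tested, 3 were higher and 3 lower (5 lower with library size only), and the median log2 fold change was 0.01 (-0.03 with library size only). Each share was 10%, below the 25.9% higher and 25.1% lower of all rows tested. Ttc19, an assembly factor of complex III, had 260.5, 291 and 269.8 in Control and 398, 379.6 and 347 in STZ. It rose without overlap, at 0.45 (95% interval 0.29 to 0.61). Tmem70, an assembly factor of complex V, had 295, 268 and 269 in Control and 221, 213 and 231 in STZ. All STZ samples were lower, at -0.32 (95% interval -0.49 to -0.14). Cyc1 and Cycs, which encode cytochromes c1 and c, did not pass, at 0.02 (95% interval -0.06 to 0.10) and -0.10 (95% interval -0.23 to 0.03), and neither had an unadjusted p under 0.05 in edgeR's quasi-likelihood test.

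In the list for maintenance and expression of mitochondrial DNA, 34 genes were tested, of which 2 were higher and 11 lower (32.4%, where 25.1% of all rows tested were lower), with a median of -0.05 (-0.08 with library size only, -0.09 without Control replicate 3). The count lower was 6 with the DESeq2 Wald test and without Control replicate 3, and 7 without Control replicate 2 and without STZ replicate 3. The share of all rows that was lower in those fits is not given here, so these counts cannot be set against 25.1%. Mterf3, a repressor of mitochondrial transcription, had 1188, 1128 and 1145 in Control and 1557, 1529 and 1619 in STZ. The groups lay far apart, at a log2 fold change of 0.44 (SE 0.05; edgeR's quasi-likelihood test, Benjamini-Hochberg adjusted p = 6.08e-11). Polg, the catalytic subunit of the mitochondrial DNA polymerase, had 963, 1019 and 1050 in Control and 833, 810.0 and 844 in STZ. It fell without overlap, at -0.29 (95% interval -0.39 to -0.18; edgeR's quasi-likelihood test, Benjamini-Hochberg adjusted p = 9.04e-06).

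Of 8 transcription regulators of mitochondrial genes that were tested, 2 were higher and 2 lower. Each share was 25%, close to the 25.9% higher and 25.1% lower of all rows tested. Gabpa, the ETS factor named above, had 1150, 1238 and 1433 in Control and 895, 914 and 948 in STZ. Every STZ sample was below every Control sample, at -0.47 (SE 0.06, 95% interval -0.59 to -0.36; edgeR's quasi-likelihood test, Benjamini-Hochberg adjusted p = 2.17e-09). Nrf1, chosen after its value was seen because its motif was searched, had 733, 654 and 676 in Control and 586, 553 and 589 in STZ. It fell without overlap, at -0.25 (95% interval -0.37 to -0.13). Yy1, whose motif was searched as well, and Gabpb1, the partner of Gabpa, overlapped between the groups and did not pass, at 0.06 (95% interval -0.05 to 0.17) and -0.02 (95% interval -0.22 to 0.18). Ppard, a nuclear receptor that controls genes of fatty acid oxidation, had 448, 395 and 458 in Control and 587, 629 and 586 in STZ. It rose without overlap, at 0.46 (95% interval 0.33 to 0.60). Esrra, a nuclear receptor that works with Ppargc1a, had low counts, with raw reads of 20, 19 and 18 in Control and 41, 39 and 54 in STZ. After scaling its groups did not overlap, and it rose at a log2 fold change of 1.001 (95% interval 0.52 to 1.48), only just past the study's threshold of 1 and not past it with library size only (0.97) or without Control replicate 3 (0.88). Ppargc1a, the coactivator known for driving mitochondrial biogenesis, had raw reads of 0, 0 and 1 in Control and 0, 0 and 0 in STZ, so no change in it could be detected. In the citric acid cycle and pyruvate dehydrogenase, 17 genes were tested, 2 higher and 5 lower, with a median of -0.01 (-0.05 with library size only). These shares were 11.8% and 29.4%, beside 25.9% and 25.1% of all rows tested. The count higher was 1 with no filter, with library size only, with upper-quartile scaling, with the DESeq2 Wald test, and without Control replicate 1, Control replicate 3 or STZ replicate 3. Fh, which encodes fumarase and acts on the product of complex II, had 1368, 1430 and 1375 in Control and 973, 1026 and 1023 in STZ. Every STZ sample was lower than every Control sample, at -0.47 (95% interval -0.56 to -0.37).

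The markers of the labelled cell type were mixed. Krt8, an epithelial keratin and the most abundant gene of the epithelial list, had 13718, 14660 and 14511 in Control and 19873, 20073 and 19965 in STZ. It rose at 0.48 (95% interval 0.41 to 0.55), and Krt18, its usual partner, had raw reads of 1, 0 and 1 in Control and 3, 0 and 2 in STZ. Of the 7 epithelial and renal lineage genes listed in the table, 2 passed the filter, 1 higher and 1 lower. The lower one was Cdh1, E-cadherin, with raw reads of 32, 22 and 35 in Control and 23, 25 and 16 in STZ and a log2 fold change of -0.69 (95% interval -1.24 to -0.15). Its groups overlapped after scaling, and the call was lost with the DESeq2 Wald test and without Control replicate 1, Control replicate 3, STZ replicate 1 or STZ replicate 3 (log2 fold change -0.44). Proximal tubule genes were at 0 to 10 raw reads, such as Lrp2 with raw reads of 4, 0 and 1 in Control and 2, 0 and 4 in STZ and Slc34a1 with 0, 0 and 1 in Control and 0, 2 and 0 in STZ, except Aqp1, which had 161, 167 and 113 in Control and 81, 66 and 70 in STZ and, after scaling, fell at -1.25 (95% interval -1.57 to -0.93). The summed normalized counts of the proximal tubule list, most of them from Aqp1, were lower in every STZ sample, at 205, 194 and 123 in Control and 85.0, 81.1 and 71.4 in STZ. Slc2a2, which encodes the transporter that carries streptozotocin into beta cells, had 0, 0 and 1 in Control and 0, 0 and 0 in STZ.

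Of 8 fibroblast or stromal genes listed, 5 passed the filter and all 5 were lower in STZ, where 25.1% of all rows tested were lower. The count fell to 2 without Control replicate 3, where Vim, Acta2 and Col1a1 were not called, and to 4 without STZ replicate 3, where Col1a1 was not (log2 fold change -0.13, from -0.27). The list's summed normalized counts were 25557, 26857 and 28161 in Control and 24137, 24164 and 24525 in STZ, lower in every STZ sample. Vim was the most abundant, at -0.12 (95% interval -0.19 to -0.05), Col3a1 moved the most, at -1.35 (95% interval -1.51 to -1.18), and Col1a2, Pdgfra and Thy1 were at 0 to 4 raw reads. The endothelial list had no gene past the filter, with Cdh5 at 0, 0 and 0 in Control and 0, 0 and 2 in STZ and Kdr at 0, 2 and 1 in Control and 6, 9 and 7 in STZ raw reads. In the leukocyte list, Cd68 alone passed the filter and was not called (0.40, SE 0.30), and Ptprc had raw reads of 1, 0 and 0 in Control and 0, 0 and 0 in STZ. The summed normalized counts of the epithelial list, almost all of them from Krt8, were 13767, 14691 and 14553 in Control and 19912, 20116 and 19990 in STZ, those of the endothelial list 9.39, 5.66 and 8.74 in Control and 9.95, 14.1 and 10.8 in STZ, and those of the leukocyte list 27.0, 18.1 and 25.2 in Control and 35.3, 28.1 and 31.6 in STZ. All 3 sums were higher in every STZ sample than in every Control sample, the last 2 at very low counts. The part of these shifts in the results for the oxidative phosphorylation genes was not tested.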

How the data were processed

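The authors prepared stranded mRNA libraries from 6 samples of NRK-52E cells, aligned the reads with STAR 2.7.10a (per the submitters' processing notes) to the Rnor6 assembly and used featureCounts to assign reads that mapped uniquely. The deposited values are raw counts per gene and were used as they stand. Genes with near-identical copies can lose or share reads under this counting, which applies to several subunits and to rows that share a symbol. Rows were filtered with filterByExpr, scaled by TMM and tested with edgeR 4.0.16 in R 4.3.3 (quasi-likelihood test, group as the only term, Benjamini-Hochberg over 11870 rows). The procedure was tested on simulated data. DESeq2 1.42.0, limma 3.58.1, other filters and scalings, a replicate block and the removal of each sample were alternatives. So were a stricter cutoff on the adjusted p and the structural subunits alone. The standard error is the log2 fold change over the square root of F. Named members are all mitochondrially encoded rows, complex II, the core of complex I, listed paralogues, the 2 largest rises and falls without overlap per complex (mean of at least 50 normalized counts), the row with most reads per complex and, in each related list, the smallest p in each direction; 2 genes that meet these rules are not reported here. Others named were chosen after their values were seen. Members and lists were chosen with earlier results of these data known, and the parts of each complex were assigned after the counts were seen.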

Additional observations from a re-analysis of the deposited data

How the results depend on the processing

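No gene with a call that was named by rule changed direction under any alternative. Across the alternatives, nuclear rows higher ranged from 20 to 31 (30 in the report) and lower from 8 to 16 (10), and mitochondrially encoded rows lower from 5 to 8 (8). These ranges are not of processing alone. They also hold a stricter cutoff on the adjusted p and the count of structural subunits alone, which had 27 higher and 8 lower. With library size only, 16 nuclear rows were lower, and with the DESeq2 Wald test 5 mitochondrially encoded rows were; the cause was not tested. With each sample left out in turn, nuclear rows higher ranged from 21 to 31, nuclear rows lower from 9 to 13 and mitochondrially encoded rows lower from 6 to 8, with 2 higher throughout. The correlations of same-numbered samples, taken on deviations from the group means, were 0.0324, -0.0378 and 0.105 over 10341 genes. They showed no clear pairing by number, but with 3 samples in a group they cannot exclude one. Replicate 3 correlated best with its own number, and replicates 1 and 2 did not. Under the replicate block, 30 nuclear rows were higher and 12 lower, and 2 mitochondrially encoded rows were higher and 8 lower. Robust dispersion estimates (6 mitochondrially encoded rows lower) and summing rows that share a symbol (30 nuclear higher, 10 lower) were chosen after seeing the data. Of 865 values for the genes named by rule (the other genes in the text are not counted here and lost further calls), 824 kept their direction and side of the threshold, 26 lost a call, 4 gained one and 11 changed sign without a call. Low counts limit the rows under about 50 reads, such as Ndufa3 and Atp5mc1, whose intervals are wide. The reason for the low counts was not tested.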
